A study of Mus musculus with 4 samples.

Results

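The very long peaks were the autosomal DHX9 peaks of 400 bases or more, chosen by length alone. There were 960 of them among 42236 autosomal peaks, which is 2.27% of the autosomal peaks, and the whole list held 43106 peaks. The peaks came from FLASH, a method of the CLIP family: cells are irradiated so that a protein becomes fixed to the RNA it touches, the protein is purified, and the attached RNA is sequenced in a way that keeps its strand. The experiment had 2 libraries with a rabbit antibody to DHX9 and 2 with rabbit IgG as background, each as biological replicates A and B. All 4 came from neural progenitor cells grown from WT26, a male mouse embryonic stem cell line of C57BL/6x129sV background, and kept in N2B27 medium with EGF and FGF2 at 10 ng/ml each. No genotype or treatment differed between the groups, and the cells stand for 1 line grown in culture.

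The deposited data were 1 peak list for all 4 libraries, with a position and a strand for each peak and no height, score or count. No value per library, sequencing depth or replicate error could therefore be given, and the values below describe the list without a test. Intervals given with shares are 95% Wilson intervals that cover counting error only, and peaks of 1 gene are not independent. A gene without a long peak is a gene in which none was called, since expression was not measured. Over all kinds of gene, 4395 of 47038 annotated autosomal genes held a peak. That set includes pseudogenes and noncoding genes, so it is not matched to the marker genes that follow. Of 10 neural progenitor marker genes, 6 held a peak (Fabp7, Nfia, Nfib, Ptprz1, Slc1a3 and Vim), while Hes5, Nes, Pax6 and Sox2 held none. None of 5 markers of pluripotent cells and none of 5 of astrocytes held a peak, against 2 of 6 for oligodendrocytes (Olig1 and Olig2), 2 of 7 for mature neurons (Dlg4 and Map2) and 2 of 7 for mesoderm, endoderm and fibroblasts (Col1a1 and Col3a1).

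DHX9 is a helicase of the DExH family that binds and unwinds double-stranded RNA, and it is found mainly in the nucleus. RNA folds into such structures within hairpins, as in ribosomal RNA and microRNA precursors, and where repeats of opposite orientation lie near each other in a transcript, as often happens in introns. A peak in data of this kind is a stretch that the peak caller reported as bound. How the IgG background entered the calling is not given here. The length of a peak gives the extent of the stretch called as 1 piece and not the amount of RNA bound.

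The longest peak that held microRNA hairpins was 811 bases long, and its sequences are shown because both hairpins lay in it whole. It lay on the plus strand of Gm3764, a long noncoding RNA gene, at chr3:88215121-88215931 (mm10), and was the third longest of all. In the 5′ to 3′ direction, Mir3093 filled bases 51 to 137 of the peak and Mir9-1 bases 478 to 566. Mir9-1 is 1 of the genes for miR-9, a microRNA that is abundant in neural progenitors and known for promoting their differentiation. The hairpins from RefSeq (GRCm38.p6) follow, with the mature arms in capitals, and after them the mature microRNAs with the seed, bases 2 to 8, in capitals.
Mir3093 hairpin, chr3:88215171-88215257, plus strand: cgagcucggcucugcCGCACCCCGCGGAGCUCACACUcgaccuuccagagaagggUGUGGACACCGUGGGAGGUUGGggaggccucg
Mir9-1 hairpin, chr3:88215598-88215686, plus strand: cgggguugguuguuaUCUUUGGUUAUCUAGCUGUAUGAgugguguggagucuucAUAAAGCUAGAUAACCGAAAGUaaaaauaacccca
miR-3093-5p: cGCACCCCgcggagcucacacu
miR-3093-3p: uGUGGACAccgugggagguugg
miR-9-5p: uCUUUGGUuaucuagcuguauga
miR-9-3p: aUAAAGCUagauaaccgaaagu

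The 4 seeds all differed. Across the autosomes, 41 of 919 annotated hairpins were touched by a peak of their own strand, 10 of them whole within 1 peak and 31 in part. Of these 41, only Mir3093 and Mir9-1 were touched by a long peak. The other peaks at hairpins had a median length of 142.5 bases and reached at most 362. Of the other genes for miR-9, Mir9-2 was touched over 31 bases by a peak of 90 bases, and Mir9-3 was touched by none.

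The long peaks ranged from 400 to 981 bases, with a median of 455 and a 95th percentile of 574. All autosomal peaks ranged from 16 to 981 bases, with a median of 153. The long peaks held 448494 of the 7322521 bases in autosomal peaks, or 6.12%. The threshold cut through a continuous slope: 98 peaks of 400 to 409 bases lay just inside it and 106 of 390 to 399 just outside. The peaks just inside had a median gap of 72 bases to the nearest peak of the same strand, and 97.96% lay in a protein-coding gene. Those just outside had a median gap of 86.5 bases and a share of 95.3%.

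**Figure D1:**
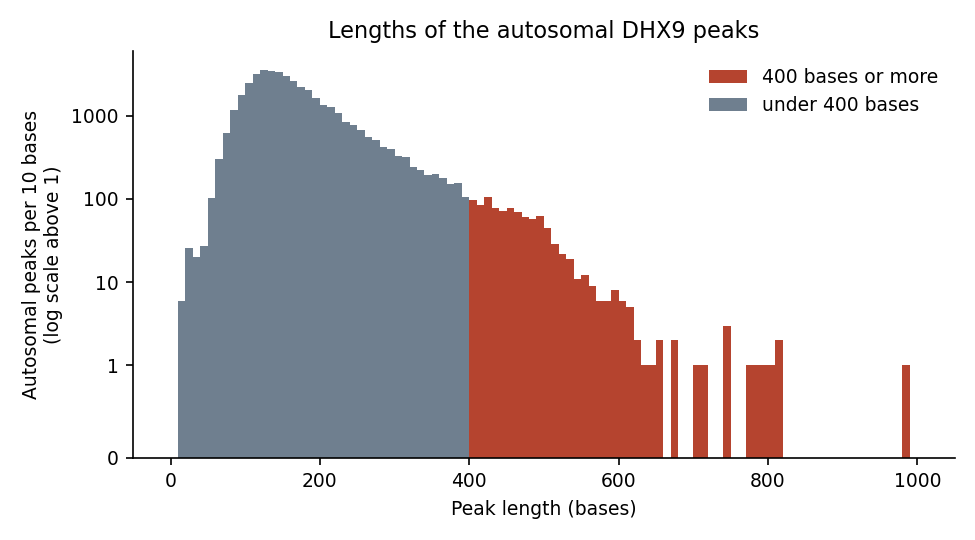
Number of autosomal peaks for each 10 bases of peak length (horizontal axis, bases; vertical axis on a log scale above 1), with the 960 peaks of 400 bases or more in red and the 41276 shorter ones in grey. The counts fall steadily through the threshold and more steeply beyond 500 bases, with the longest peak at 981 bases.

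The decline in number became steeper near 500 bases. There were 183 peaks of 400 to 419 bases and 119 of 480 to 499. The next classes of equal width held 73 peaks of 500 to 519 bases, 41 of 520 to 539 and 23 of 540 to 559. Peaks of 600 bases or more numbered 31.

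The 15 longest peaks measured 654 to 981 bases. At the top was a stretch on the plus strand of chromosome 17 that holds Rn18s-rs5, a gene related to 18S ribosomal RNA that the annotation lists as a pseudogene, at chr17:39846354-39848202. Its peaks measured 747, 814, 981, 783 and 807 bases in 5′ to 3′ order, and all 5 were long. Together they spanned 5481 bases, from 39842990 to 39848470, of which 75.4% lay in peaks. The 783-base and 807-base peaks lay in Rn18s-rs5, and the other 3 lay in no annotated gene. Ribosomal RNA is the most abundant RNA of a cell and is encoded by many near-identical copies, so where its reads belong in the genome is uncertain.

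Malat1, a nuclear long noncoding RNA of splicing speckles, held 6 peaks, of which 5 were long. They measured 745, 570, 576, 559 and 798 bases along the transcript, and the shorter peak of 341 bases lay nearest the 3′ end. Peaks covered 51.4% of the gene, which spans 6983 bases at chr19:5795690-5802672. Malat1 thus had nearly its whole set of peaks above the threshold.

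The next genes are imprinted, that is, expressed from 1 parental copy, and no list of imprinted genes was counted. Igf2, a fetal growth factor, had 6 long peaks of 12, of 421, 507, 507, 517, 522 and 702 bases. Of these, 4 followed each other over 2473 bases in the last part of the gene. H19, the noncoding RNA beside Igf2, had 1 long peak of 677 bases among 6 peaks, and peaks covered 63.0% of its 2617 bases. Mest, whose product resembles hydrolases, had long peaks of 772 and 549 bases among 14. Peg10, derived from a retrotransposon, had long peaks of 673 and 407 bases among 21, at 94.9 and 87.3% of the gene span. Airn, the noncoding RNA that silences Igf2r in cis, had 15 long peaks of 195, none over 508 bases. Of further imprinted genes, Peg3 had 1 long peak of 14, with 417 bases, and Gnasas1 had 2 of 30, the longer of 506. Some others had no long peak. Kcnq1ot1, a noncoding RNA, had 44 peaks of at most 389 bases, Grb10 had 4 peaks, and Igf2r and Meg3 had 1 each.

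The remaining genes among the 15 longest peaks were Anks3, which encodes an ankyrin repeat protein, with a peak of 749 bases, and Zfp799, which encodes a zinc finger protein, with one of 717. Each held 1 long peak. Lsamp, a neural cell adhesion gene, had long peaks of 654, 486 and 448 bases among 138.

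**Figure D2:**
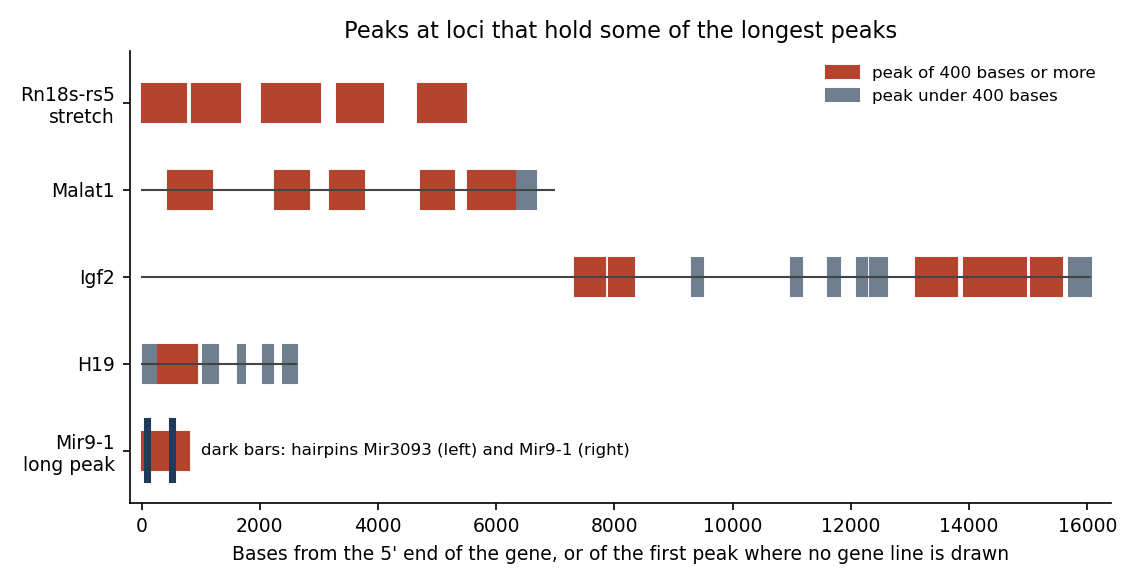
Peaks at 5 loci that hold some of the longest peaks, drawn to scale in bases from the gene's 5′ end, or from the first peak where no gene line is drawn, with peaks of 400 bases or more in red and shorter ones in grey. In the Rn18s-rs5 stretch all 5 peaks are long, in Malat1 5 of 6, in Igf2 6 of 12 and in H19 1 of 6, and the peak of 811 bases holds the hairpins of Mir3093 and Mir9-1 as dark bars.

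Of the 960 long peaks, 933 (97.2%, interval 95.9 to 98.1%) had their midpoint in an annotated gene, against 97.5% of all autosomal peaks. Protein-coding genes held 897 (93.4%, interval 91.7 to 94.8%), against 95.3% of all peaks. Long noncoding RNA genes held 65 (6.77%, interval 5.35 to 8.54%), against 6.03% of all peaks. These shares counted genes of either strand. Without genes known to lie on the opposite strand, they were 92.1% for protein-coding and 5.52% for long noncoding RNA genes. The shares over all peaks were not recomputed in that way. Of the 929 long peaks under 600 bases, 878 (94.5%) lay in protein-coding genes, against 19 of the 31 of 600 or more. Midpoints in a long noncoding RNA gene and in no protein-coding gene belonged to 33 long peaks (3.44%), against 2.04% of all peaks. Airn held 10 of these 33 and Malat1 held 5.

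The kind of gene varied most among the very longest. The share in protein-coding genes was 93.9% for peaks of 16 to 99 bases, between 95.5 and 95.7% from 100 to 399, 94.8% from 400 to 499, 93.4% from 500 to 599 and 61.3% for the 31 peaks of 600 or more. That last class included the 5 peaks of the Rn18s-rs5 stretch and 2 of Malat1. Other kinds of gene, among them pseudogenes, held 19 long peaks (1.98%), against 1.18% of all peaks.

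A strand was known for the gene of 735 long peaks, and 728 of these (99.05%) lay on that strand, against 99.2% of all peaks with a known strand. Of the 960 long peaks, 492 (51.3%) lay on the plus strand of the chromosome, against 53.1% of all peaks. By chromosome, the share of autosomal peaks that were long ran from 1.34% on chromosome 10 to 3.49% on chromosome 19.

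The long peaks were spread over 565 genes of their own strand, which is 12.9% of the 4395 genes with any autosomal peak. Among protein-coding genes it was 528 of 3929, or 13.4%. The others were 29 long noncoding RNA genes, 6 pseudogenes, Gnasas1 (antisense RNA) and 2310067E19Rik. Of the 565, 395 held 1 long peak, 142 held 2 to 4 and 28 held 5 or more. Genes with a long peak had a median of 19 peaks and a median span of 46.4 kb, against 3 peaks and 36.5 kb for all genes with a peak.

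Having a long peak followed the number of peaks in the gene. A long peak was present in 1.02% of genes with 1 peak, 4.75% with 2 to 4, 8.86% with 5 to 9, 26.9% with 10 to 19, 42.5% with 20 to 49, 75% with 50 to 99 and 97.9% with 100 or more. The share of peaks that were long varied less over the same classes, between 1.02 and 2.83%. The exception among the 47 genes with 100 or more peaks was Glg1, a Golgi protein gene, whose 107 peaks reached at most 367 bases. By gene span, the share of peaks that were long was 3.32% up to 20 kb, 2.46% from 20 to 50 kb, 2.24% from 50 to 100 kb, 2.06% from 100 to 200 kb and 1.77% above 200 kb.

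The 20 genes with the most long peaks held 171 of the 960. Zeb1, a zinc finger repressor known for epithelial to mesenchymal transition, had 19 long peaks of 287, from 400 to 612 bases. They lay between 0.683 and 49.2% of its span, with a median of 37.6%, and the median of its other peaks was 31.0%. The nuclear factor I genes, which act in glial differentiation, followed: Nfib had 13 of 206 and Nfia 12 of 339. Of the 13 in Nfib, 10 also lay in 2310067E19Rik, a gene nested within it, so these peaks are counted for both. Npas3, a basic helix-loop-helix factor and the gene with 661 peaks, had 10 long ones, or 1.51%, below the share over all autosomal peaks.

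Maml2, a coactivator of Notch target genes, had 13 long peaks of 374, and its longest was 650 bases. Map4k4, a kinase upstream of JNK, had 11 of 267. Epn2 and Hip1, which act in clathrin-coated pits, had 8 of 116 and 8 of 140, and Nedd4, a ubiquitin ligase, had 8 of 118. Ptn, a growth factor, had 6 of 116, and Serpine2, a protease inhibitor, had 6 of 118, of which 3 followed each other over 2136 bases. Gtf2i, which encodes a transcription factor, had 6 of 115.

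**Figure D3:**
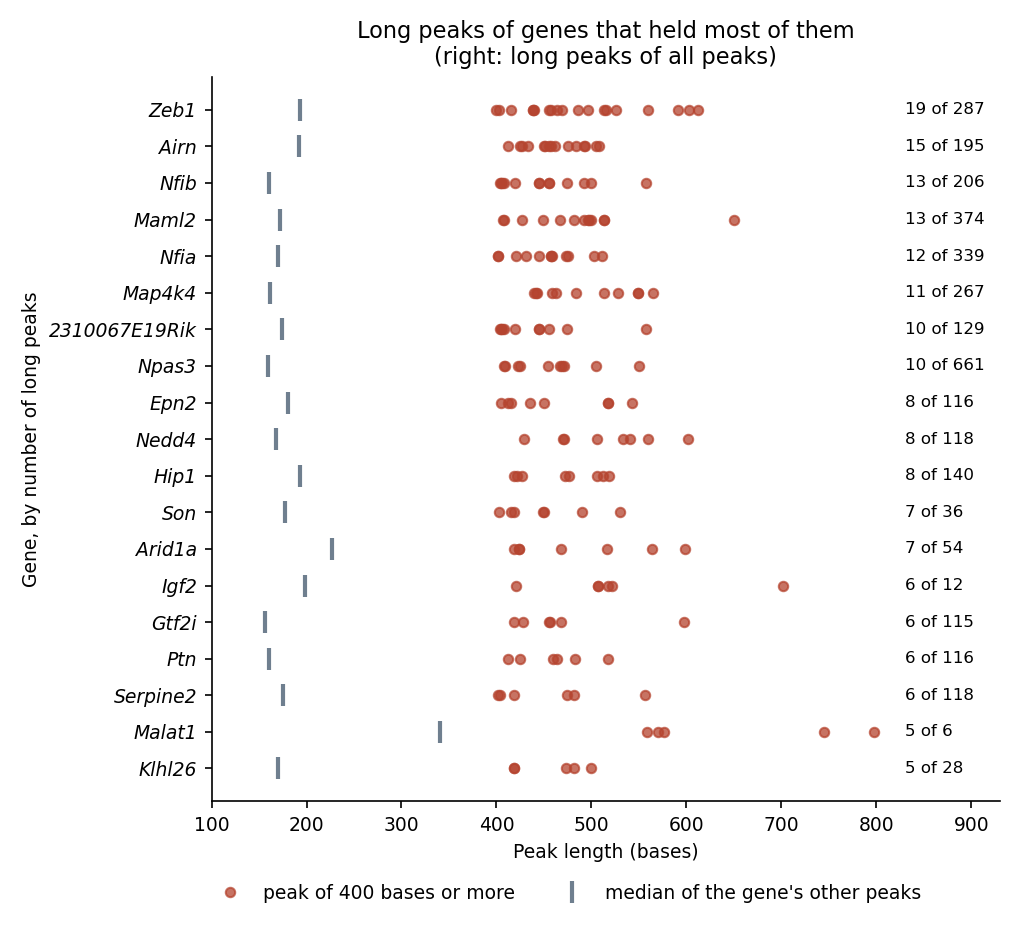
Lengths in bases of each long peak (red points) in 19 of the 20 genes that held most of them, with the median length of the gene's other peaks as a grey bar and the number of long peaks of all peaks at the right. The counts run from 19 of 287 in Zeb1 to 5 of 28 in Klhl26, and Malat1 and Igf2 have the points farthest to the right, at 798 and 702 bases.

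The order changed when long peaks were set against each gene's number of peaks. Over the 508 genes with at least 20 peaks, the median share of long peaks was 1.40%, and 235 had none. Son, a scaffold of splicing speckles, stood first with 7 of 36 (19.4%). Its long peaks measured 530, 490, 450, 449, 418, 415 and 403 bases. Klhl26, a kelch repeat gene, had 5 of 28 (17.9%), Ndufv2, of respiratory complex I, 3 of 20 (15.0%), and Scd2, a fatty acid desaturase, 4 of 27 (14.8%). They were followed by Tcf25 with 4 of 28 (14.3%), the translation factor Eif4h with 5 of 36 (13.9%) and the RNA-binding protein gene Ewsr1 with 5 of 38 (13.2%). The chromatin remodeller subunit Arid1a had 7 of 54 (13.0%), the cohesin loader Mau2 4 of 35 (11.4%) and the guanine nucleotide exchange factor Trio 3 of 28 (10.7%).

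Scd2 and Eif4h had their long peaks near the 3′ end. In Scd2 they lay between 75.3 and 92.3% of the span, while the median of its other peaks was at 36.2%. In Eif4h they lay between 77.3 and 98.6%, while the median of its other peaks was at 30.5%. Son showed the other order, with a median of 33.8% for its long peaks and 59.4% for its others.

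Dhx9 itself, at chr1:153455756-153487688, held 32 peaks, of which 1 was long, with 478 bases. It lay at 52.3% of the span. Of the double-stranded RNA binding and editing genes, 10 held a peak and 2 of these (20%), Zfr and Dhx9, a long one, with 1.63% of peaks long. Over all genes with a peak the shares were 12.9% of genes and 2.27% of peaks. Dgcr8, which with Drosha cuts microRNA hairpins, had 12 peaks of at most 284 bases.

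Among genes of splicing and RNA processing, 13 of the 27 with a peak held a long one (48.1%), and 3.34% of their peaks were long, against 12.9% of all genes and 2.27% of all peaks. After Son came Hnrnpc, an hnRNP protein, with long peaks of 428, 420 and 413 bases among 38. Luc7l2, of the U1 snRNP, had 3 of 53, from 478 to 530 bases. The kinase gene Clk1, Hnrnpu and Tra2a had 2 each, of 24, 27 and 28 peaks. Having a long peak followed the number of peaks in a gene (above), and the gene lists were not matched for it.

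Neural progenitor and glial identity genes with a long peak were 8 of 15 (53.3%), with 3.16% of peaks long. For this list and the next 2, the shares over all were 12.9% of genes with a peak and 2.27% of peaks. Besides those named, Slc1a3, a glial glutamate transporter, had 4 of 122, from 409 to 427 bases. Growth factor signalling genes were 9 of 21 (42.9%), with 3.82% of peaks long. Map4k4 and Igf2 led, with 11 and 6 of the 29 long peaks of this list. Etv5, an ETS transcription factor, and Igfbp3, a binding protein for insulin-like growth factors, were the next 2 in that list. Neural adhesion and axon guidance genes were 8 of 20 (40%), but only 1.43% of their peaks were long. Adgrb3, an adhesion receptor, had 5 of 307, the protocadherin Pcdh9 4 of 253 and Kirrel3 4 of 287, so these genes had many peaks and few long ones.

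Notch and Wnt signalling genes with a long peak were 4 of 13 (30.8%), with 2.80% of peaks long. The shares over all genes with a peak and over all peaks were 12.9% and 2.27%. After Maml2 came Tcf7l1 with 3 of 143, Notch1 with 1 of 21 and Tcf7l2 with 1 of 37. Chromatin regulators were 7 of 25 (28.0%), with 2.75% of peaks long, led by Arid1a, Auts2, Chd4 and Setd5. Nuclear long noncoding RNA genes were 5 of 12 (41.7%), with 6.13% of peaks long, and 20 of those 23 long peaks lay in Airn and Malat1.

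Cell cycle and replication genes were 2 of 12 (16.7%, against 12.9% of all), with 4.72% of 106 peaks long (against 2.27% of all). They were Ccnd2, a D-type cyclin, with 3 of 55, and Top2a, a DNA topoisomerase, with 2 of 29. Ribosomal protein genes were 1 of 16 (6.25%), with 4.08% of 49 peaks long, namely Rpl23, with 2 long peaks of 9, the longer of 490 bases. Of mature neuron markers it was Map2 among 4, with 2 of 46, and of mesoderm, endoderm and fibroblast markers Pdgfrb among 4, with 1 of 6. None of the 3 astrocyte and oligodendrocyte markers with a peak had a long one, and no pluripotent cell marker of that list held a peak.

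The place along the gene was read from the 5′ end of the gene span. Over the 928 long peaks with a gene of their strand, 114 (12.3%, interval 10.3 to 14.6%) lay in the first 10% of the gene span, against 14.4% of 41040 peaks. The last 10% held 69 (7.44%, interval 5.92 to 9.30%), against 5.53% of all peaks. Within 5 kb of the gene's 3′ end lay 123 (13.3%, interval 11.2 to 15.6%), against 8.10% of all peaks. Within 5 kb of the 5′ end lay 135 (14.5%, interval 12.4 to 16.96%), against 12.3% of all peaks. The interval for the first 10% covered the share over all peaks, and those for the last 10% and for 5 kb from either end lay above it.

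The share near the 3′ end was higher in the longer classes. It was 8.81% for peaks of 16 to 99 bases, 7.495% from 100 to 199, 8.80% from 200 to 299, 9.61% from 300 to 399, 11.2% from 400 to 499, 20.6% from 500 to 599 and 26.9% for 600 or more. Long peaks also lay in shorter genes, with a median span of 65.4 kb per peak, against 80.5 kb for all peaks, and a short gene has more of its bases near its end. Within classes of gene span, the share within 5 kb of the 3′ end was 48.3% of long peaks against 40.5% of all up to 20 kb, and 16.3% against 9.88% from 20 to 50 kb. From 50 to 100 kb it was 3.77% against 3.62%, from 100 to 200 kb 2.70% against 2.12%, and above 200 kb 0.552% against 0.667%. The difference was largest in genes of up to 50 kb. Within 5 kb of the 5′ end it was 42.9% of long peaks against 48.8% of all up to 20 kb, 16.3% against 16.1% from 20 to 50 kb, and 9.43% against 8.24% from 50 to 100 kb. In the next classes it was 6.08% against 4.76% and 2.21% against 1.96%.

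**Figure D4:**
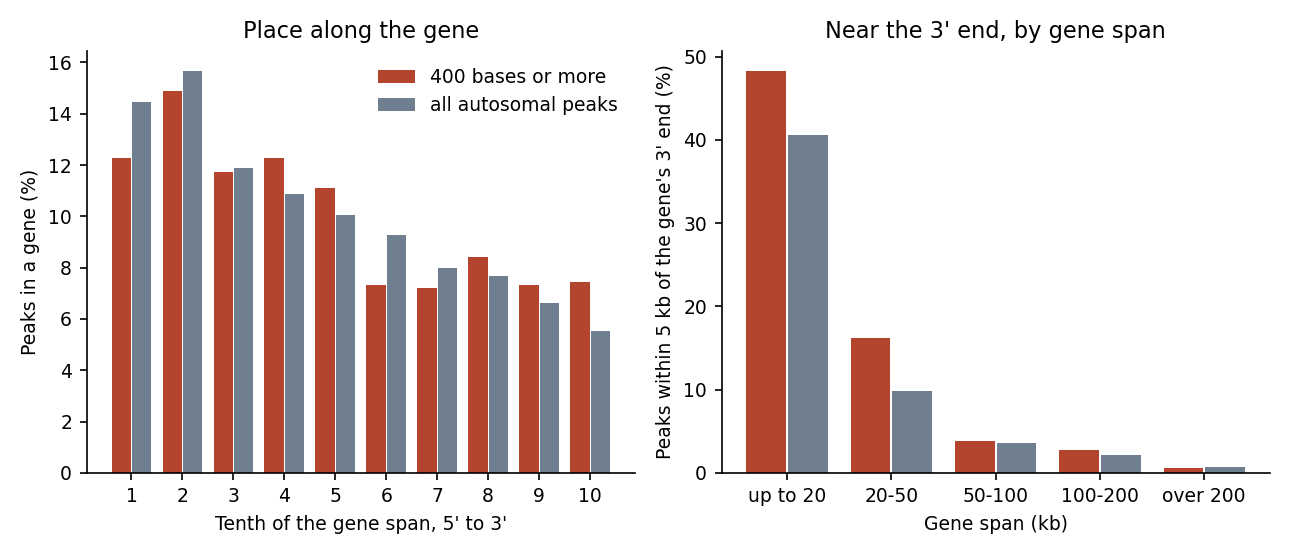
Left, percentage of peaks in each 10% of the gene span from 5′ to 3′, and right, percentage within 5 kb of the gene's 3′ end by gene span in kb, for peaks of 400 bases or more (red, 928 placed) and all autosomal peaks (grey, 41040 placed). The last 10% holds 7.44% of long peaks and 5.53% of all, and in genes of 20 to 50 kb 16.3% and 9.88% lie within 5 kb of the end.

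Set against the other peaks of the same genes, the differences were smaller. For 914 long peaks in 534 genes, 13.0% lay within 5 kb of the 3′ end, against 10.97% of the shorter peaks of the same genes, weighted alike. Within 5 kb of the 5′ end lay 14.4% of the long and 14.1% of the shorter peaks. The last 10% held 7.33% of the long and 6.53% of the shorter ones, and the first 10% held 12.4% of both. Exons, introns and untranslated regions were not assigned, since the annotation used gave gene spans only.

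Annotated gene starts lay within 5 of the 960 long peaks (0.521%), against 52 of all peaks (0.123%), and a longer peak spans more bases. The windows around annotated starts were touched by 9 long peaks (0.94%), at 8 starts, against 162 of all 42236 peaks (0.38%). The bases before these starts had a median GC content of 69.8%, against 52.4% over 31396 autosomal windows. It was not computed for the windows touched by shorter peaks. The 8 values ranged from 45.2 to 74.4%, and those of Gm51536 (49.6%), Ddx17 (50.8%) and Sfpq (45.2%) were below that median. In Ddx17, Hnrnpu and Sfpq none of the bases before the start lay in the long peak. The 250 bases before the start are shown from RefSeq (GRCm38.p6) for 3 GC-rich ones with many bases in a long peak, in the direction of the gene, with the bases inside a long peak in capitals.
Spred1, chr2:117120821-117121070, plus strand: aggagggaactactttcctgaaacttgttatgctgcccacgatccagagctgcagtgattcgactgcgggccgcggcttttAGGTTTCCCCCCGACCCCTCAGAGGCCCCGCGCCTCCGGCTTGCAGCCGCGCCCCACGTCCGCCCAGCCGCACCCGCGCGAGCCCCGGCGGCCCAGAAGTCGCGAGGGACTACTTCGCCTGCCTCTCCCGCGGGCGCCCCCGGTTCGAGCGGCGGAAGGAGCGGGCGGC
Inka2, chr3:105705208-105705457, plus strand: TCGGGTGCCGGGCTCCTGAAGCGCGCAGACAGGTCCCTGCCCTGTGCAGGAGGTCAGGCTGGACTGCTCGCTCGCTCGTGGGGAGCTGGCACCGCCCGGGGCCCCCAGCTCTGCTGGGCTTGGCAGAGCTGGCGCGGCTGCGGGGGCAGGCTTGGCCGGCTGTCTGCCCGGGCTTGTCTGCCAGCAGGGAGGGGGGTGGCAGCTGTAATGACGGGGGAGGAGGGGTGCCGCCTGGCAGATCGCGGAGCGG
Igf2, chr7:142658805-142659054, minus strand: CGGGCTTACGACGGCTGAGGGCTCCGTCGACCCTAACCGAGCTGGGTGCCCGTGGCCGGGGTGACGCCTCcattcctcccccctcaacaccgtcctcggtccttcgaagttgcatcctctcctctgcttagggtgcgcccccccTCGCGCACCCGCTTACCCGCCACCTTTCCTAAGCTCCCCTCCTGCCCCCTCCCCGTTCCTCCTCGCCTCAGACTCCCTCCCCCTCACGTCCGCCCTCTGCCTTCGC

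Spred1, an inhibitor of Ras and MAP kinase signalling, had 169 of these 250 bases in a long peak of 426 bases, and 78.7% of the 169 were G or C. Inka2, an inhibitor of the kinase PAK4, had all 250 in a peak of 472 bases, with 73.6% G or C. Igf2 had 176 bases in peaks of 421 and 507 bases on both sides of a gap, with 71.0% G or C. The capitals lie on the strand of the gene, upstream of the start given. For Igf2 and Inka2 the annotated gene span begins farther upstream, at chr7:142666816 and chr3:105704599, so these bases lie inside the annotated gene. The bases of Spred1 lie before its gene span, which begins at chr2:117121071. Whether another transcript of Spred1 starts farther upstream was not examined.

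The long peaks lay close to other peaks, by distances taken from peak edges. At equal spacing of midpoints, a longer peak has smaller gaps and a wider window around it, and this was not adjusted for. The gap to the nearest peak of the same strand, measured from edge to edge, had a median of 86 bases and quartiles of 24 and 238 for long peaks, against a median of 175 and quartiles of 56 and 595 for all peaks. Such a neighbour lay within 1 kb for 876 long peaks (91.3%, interval 89.3 to 92.9%), against 82.0% of all peaks. It lay within 50 bases for 363 (37.8%), against 23.3%. The mean number of neighbours within 1 kb was 3.91 for long peaks, against 2.87 for all. No peak of the same strand lay within 10 kb of 29 long peaks (3.02%), against 5.77% of all. Among the 19259 shorter peaks of genes that held a long one, this share was 1.15%, below that of the long peaks.

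By length class the median gap was 254.5 bases for peaks of 16 to 99 bases, 206 from 100 to 199, 118 from 200 to 299, 94 from 300 to 399, 92 from 400 to 499, 58 from 500 to 599 and 104 for 600 or more. Most of the decline therefore lay below the threshold. In the same genes, 93.1% of long peaks had a neighbour within 1 kb, against 89.0% of shorter peaks. The gap of 537 of 914 long peaks (58.8%) was below the median gap of their own gene's shorter peaks, and that of 350 was above it.

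The nearest peaks were mostly of ordinary length. Their median length was 173 bases beside long peaks, against 155 beside all peaks. The nearest peak was itself long for 53 of the 960 (5.52%), against 2.43% of all peaks and 4.80% of the shorter peaks of the same genes. Without the Rn18s-rs5 stretch it was 48 (5.03%). By class this share was 2.01% for peaks of 16 to 99 bases, 2.11, 3.12 and 3.39% for the next 3 classes, 4.06% from 400 to 499, 8.43% from 500 to 599 and 25.8% for 600 or more.

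**Figure D5:**
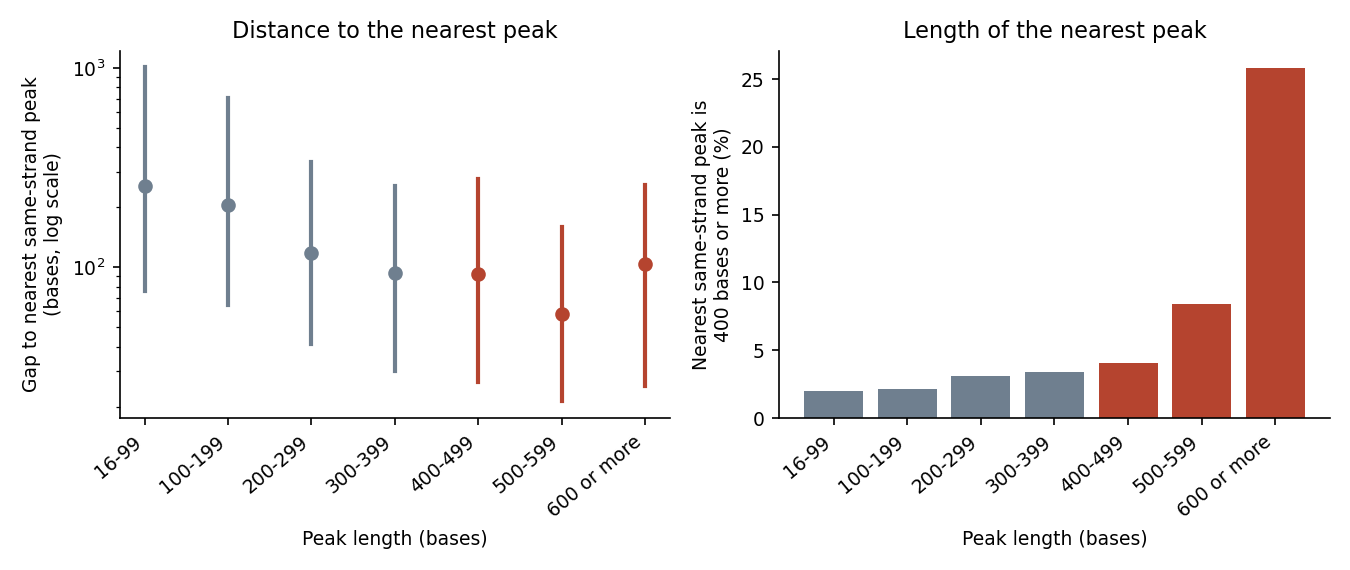
Left, median gap in bases (points, log scale) with the quartiles (lines) from a peak to the nearest peak of its strand, and right, percentage of peaks whose nearest same-strand peak has 400 bases or more, by length class from 16 to 99 up to 600 bases or more, with classes of 400 or more in red. The median gap is 254.5 bases in the shortest class and 92 from 400 to 499, and the percentage is 2.01 in the shortest class and 25.8 in the longest.

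Another long peak lay within 1 kb of 175 long peaks (18.2%, interval 15.9 to 20.8%), against 8.21% of all peaks. Of the shorter peaks of the same genes it was 16.7%, within that interval. These genes were chosen for holding a long peak, which a long peak cannot count as its own neighbour. Counting only long peaks that follow each other within 1 kb with no shorter peak between, 92 (9.58%) formed 41 runs. There were 35 runs of 2, 3 of 3, 2 of 4 and 1 of 5. The run of 5 was the Rn18s-rs5 stretch, and those of 4 lay in Malat1 (4058 bases) and Igf2 (2473 bases). The runs of 3 lay in Serpine2, in Scd2 over 1722 bases and in Gpatch8, an RNA-binding G-patch gene, over 1500 bases.

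Peaks on opposite strands were rarely close. A peak of the other strand lay within 1 kb of 4 long peaks (0.417%, interval 0.162 to 1.07%), against 0.275% of all peaks. They lay in Zc3h7a, in Nr6a1 with its antisense gene Nr6a1os, in Kxd1 and upstream of Prr14. In 3 of these 4 the opposite peak overlapped or touched the long one, and in Nr6a1 it lay 341 bases away. The median distance to the nearest opposite peak was 165.2 kb for long peaks, against 208.5 kb for all.

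Outside annotated genes lay 27 long peaks (2.81%), against 2.45% of all peaks. Their median distance to a gene known to lie on the same strand was 65.3 kb. By that measure 9 lay within 10 kb, of which 5 were downstream of the gene. Genes without a known strand were left out of it, so another gene could lie nearer. The 3 of the Rn18s-rs5 stretch lay 2991, 2107 and 837 bases from Rn18s-rs5, whose strand was not known. The 27 also included 3 on chromosome 16 of 420, 507 and 460 bases. These lay 100.4, 116.4 and 127.0 kb downstream of the annotated end of Mir99ahg, a microRNA host gene. A pair on chromosome 2, of 403 and 523 bases, had Mir298 as the nearest gene, 5629 and 6639 bases away.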

How the data were processed

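RNA bound by DHX9 was measured in 2 DHX9 and 2 IgG libraries, grouped by sample titles. Per the labels' protocols, cells were irradiated, RNase I-digested RNA was ligated to barcoded adapters with random bases for merging PCR duplicates, and libraries were sequenced in paired-end mode. The authors deposited 1 list of peaks, whose values are genome positions (1-based) and strands, with other columns empty. The file names PEAKachu as its source. Bowtie2 2.2.6 and the builds hg19 and mm10 are named per the submitters' processing notes. Positions were read as mm10: 933 of 960 long peaks lay in a gene, against 461 after a move by 5 Mb. Caller settings, IgG use, pooling of replicates and handling of reads with several places are not given in the sources used here, and each could change peak lengths.

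Length was end minus start plus 1. A peak belonged to every gene of the RefSeq table (GRCm38.p6, 47038 autosomal genes) whose span held its midpoint. Genes known to lie on the opposite strand were left out of gene counts, with strand taken from RefSeq start windows for 27024 genes. Place along the gene used 1 gene per peak, protein-coding first. Computation used Python 3.11.15, pandas 2.3.3, numpy 2.4.6 and scipy 1.17.1, tested on simulated peaks. No test was run. Named genes were the 20 with most long peaks, the 10 with the highest share among genes with at least 20 peaks, those of the 15 longest peaks, up to 4 with most long peaks of each of 14 lists, and Dhx9. Not every gene so chosen is given in the text or drawn. Promoter genes, Glg1, Kcnq1ot1, Grb10, Igf2r, Meg3, Peg3, Gnasas1, Slc1a3, Hnrnpu, Tra2a and Dgcr8 were named after their values were seen. So were cell type markers with a peak and genes at opposite-strand, intergenic or consecutive long peaks. The members, lists and alternatives were chosen with earlier results of these data known. Alternatives were thresholds of 500 and 300 bases, merging within 50 bases, any overlap with a gene, no predicted genes, no chromosomes 8 and 11, and no top 5 genes. The planned overlap with exons was not computed.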

Additional observations from a re-analysis of the deposited data

Results flagged for a closer look

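Peaks of 400 bases or more outside the autosomes were not part of the comparisons above and are given here as values. The mitochondrial genome held 12 among its 52 peaks (23.1%), the longest of 781 bases. The X chromosome held 11 among 771 (1.43%), the longest of 563 bases, and the Y chromosome held 4 among 41 (9.76%), the longest of 703 bases. No peak of this length lay among the 6 on an unplaced sequence. The list holds no peaks called in the IgG libraries on their own, so no background level stands beside these counts.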

How the results depend on the processing

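Of 99 values recomputed for 11 results under 9 settings, 78 stayed within the 95% interval of the reported value (counts within 1.5 times) and 21 did not. Changing the threshold or merging changes the members by construction. Any overlap, no predicted genes and no genes of the opposite strand change only the gene assignment. The number of long peaks and the results on neighbours could not move under these settings, so part of the 78 was fixed in advance. At 500 bases there were 197 long peaks in 148 genes, with 94.4% in a gene, 88.3% in a protein-coding gene, 11.8% in the last 10% of the gene span, 97.0% with a neighbour within 1 kb, a median gap of 69 bases and 9.14% with another long peak within 1 kb. At 300 bases there were 3052 in 1195 genes, with 94.95% in protein-coding genes and 38.1% with another long peak within 1 kb. After merging peaks within 50 bases there were 2761 in 1061 genes, with 95.1% in protein-coding genes, 94.6% with a neighbour within 1 kb, a median gap of 134 bases and 41.8% with another long peak within 1 kb. Without predicted genes, 95.4% lay in a gene and 3.02% in a long noncoding RNA gene. Without the 5 genes with most long peaks, which include Airn, the noncoding share was 5.29%. Any overlap with a gene and leaving out chromosomes 8 and 11 moved none of the 11. Neither did leaving out genes of the opposite strand or the Rn18s-rs5 stretch, both chosen after seeing the data. The strand setting also could not move the number of genes or the place along the gene, which left such genes out already. The overlap with exons was not run. No replicate could be left out, as the libraries share 1 list. No paired analysis was possible because that list gives no value for replicates A and B. Depth is unknown, and reads in repeats or multi-copy genes may be misplaced.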

Other observations

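Of the 508 genes with at least 20 peaks, 235 held no long one. A long peak was present in 72 of 96 genes with 50 to 99 peaks and in 46 of 47 with 100 or more. Among genes without one, those with most peaks were exceptions to this. After Glg1 with 107 came Gpm6a, a neuronal membrane glycoprotein gene, with 97 peaks, and Gab2, an adaptor of receptor tyrosine kinases, with 96. Within the hairpin set, Mir335, which lies in the imprinted gene Mest, was under a peak of 353 bases, shorter than the long peaks of 772 and 549 bases in the same gene.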
